A study of Bos taurus with 11 samples.

Results

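The genes described here mark B lymphocytes and carry the first steps of signalling from their antigen receptor: CD79A, CD79B, MS4A1, CD22, CR2, BLNK, BANK1, PAX5 and POU2AF1. Their probes were found by the gene name printed in the array files. Of 43653 probes with 24839 different names, 13 carried the name of 8 of these 9 genes: 4 for CR2, 2 each for CD79A and MS4A1, and 1 each for CD79B, BLNK, BANK1, PAX5 and POU2AF1. No probe of the array was named CD22, also after old names were updated, so that gene has no value here.

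RNA from peripheral blood mononuclear cells, the blood fraction that holds lymphocytes and monocytes, was hybridised to 1-colour bovine oligonucleotide arrays. The cells came from female cattle of 2 breeds: 5 arrays were labelled Ladakhi, cattle kept at high altitude, and 6 were labelled Sahiwal, cattle from the low arid and semi-arid plains. No treatment or age was given, and the comparison is of breed and altitude together. The labels number the samples but do not say in words that each is a separate animal, so the p-values measure the spread between these samples.

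B cells read antigen with a membrane immunoglobulin that cannot signal alone. It is held by the CD79A and CD79B chains, whose tails carry the immunoreceptor tyrosine-based activation motif (ITAM) that kinases act on. The adaptor BLNK then joins the kinases to their targets, while PAX5 and the coactivator POU2AF1 maintain the transcription of B cell genes. In blood, these transcripts come mainly from circulating B cells. In RNA from a mixture of cells, fewer B cells and less of a transcript in each B cell cannot be told apart.

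The reporters on the array are 60-base oligonucleotides. The following 5 are shown because each is the stretch of sequence that its reading refers to. Each is given 5′ to 3′ as in the array files, with the files' position on the HGSC Btau_3.1 cattle assembly. The capitals in the first mark the 2 tyrosine-led parts of an ITAM, found by translating the probe in its 1 reading frame without a stop; of all 43653 probes, 27 (0.0619%) held such a motif in an open frame, and the CD79A junction probe was the 1 member among them.
CD79A junction probe (chr18:51076548-51076758, minus strand): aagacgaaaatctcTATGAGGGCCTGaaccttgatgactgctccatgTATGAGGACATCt
CD79B (chr19:49674863-49674922, minus strand): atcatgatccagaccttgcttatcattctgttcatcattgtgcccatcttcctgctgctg
MS4A1 junction probe (chr15:84166872-84168085, plus strand): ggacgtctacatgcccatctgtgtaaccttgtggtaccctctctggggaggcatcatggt
PAX5 (chr8:63785420-63815322, minus strand): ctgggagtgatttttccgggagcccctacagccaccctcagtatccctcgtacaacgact
CR2 probe 4 (an unplaced sequence, bases 107342 to 107401, plus strand): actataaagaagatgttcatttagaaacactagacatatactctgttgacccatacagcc

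The positions of the CD79A, MS4A1 and PAX5 probes above span 211, 1214 and 29903 bases of genome for 60 bases of probe, so each bridges at least 1 intron and is called a junction probe where the gene has another. The second CD79A probe (chr18:51076126-51076185) and the second MS4A1 probe (chr15:84172259-84172318) are contiguous in the genome. The other probes lie at chr26:17957335-17957394 for BLNK, chr6:24264914-24264973 for BANK1 and chr15:19854269-19854328 for POU2AF1, and CR2 probes 1 to 3 on the same unplaced sequence as probe 4, with probe 3 spanning 1368 bases. Whether a contiguous probe lies in coding sequence or in a UTR was not annotated in the files.

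The 2 breeds were read with unequal sensitivity, and breed coincides with scanner, extraction software version and slide, so that these cannot be told apart in any comparison below. Of 43803 spots, 4243 to 6608 were well above background on the Ladakhi arrays and 17517 to 20574 on the Sahiwal arrays. Levels are log2 of the processed signal relative to the 75th percentile, on the same array, of the 2705 probes detected on all 11 arrays. On this scale the dimmest spot above background lay at -3.59 in Ladakhi and at -8.22 in Sahiwal, as means over arrays. A probe is called measured in a breed where it was above background on 4 or more of its arrays. A level below that limit is not a measurement, and levels are compared between arrays for 1 probe, not between probes. Markers of T cells, natural killer (NK) cells and monocytes were present in both breeds: 10 of 12 T cell, 5 of 9 NK cell and 9 of 12 monocyte genes were above background on all 6 Sahiwal arrays, and 4, 3 and 3 on all 5 Ladakhi arrays. Granulocyte markers, which the labelled fraction should lack, summed to 1.61 and 1.92 times the array reference on Sahiwal arrays 4 and 6 and to 0.05 to 0.12 on the other Sahiwal arrays. The count of members called and their co-variation are therefore also given without those 2.

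In Sahiwal blood 6 of the B cell genes were detected throughout. CD79A, CD79B, MS4A1, BLNK, BANK1 and POU2AF1 were above background on all 6 arrays with all 8 of their probes, as were 34.6% of the probes of the array. In Ladakhi blood 2 of the 13 probes were above background on all 5 arrays, the CD79A contiguous probe and POU2AF1 (6.22% of all probes were), and 7 were so on none. Of the probes above background on all Sahiwal arrays, 49.1% were above it on 0 Ladakhi arrays, which for the members was 3 of 8. The number of member probes above background on Ladakhi arrays 1 to 5 was 3, 2, 5, 4 and 5, and the 2 arrays with 5 were also those with the most spots above background in all, 6608 and 6541. No member spot was saturated or marked as an outlier.

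**Figure D1:**
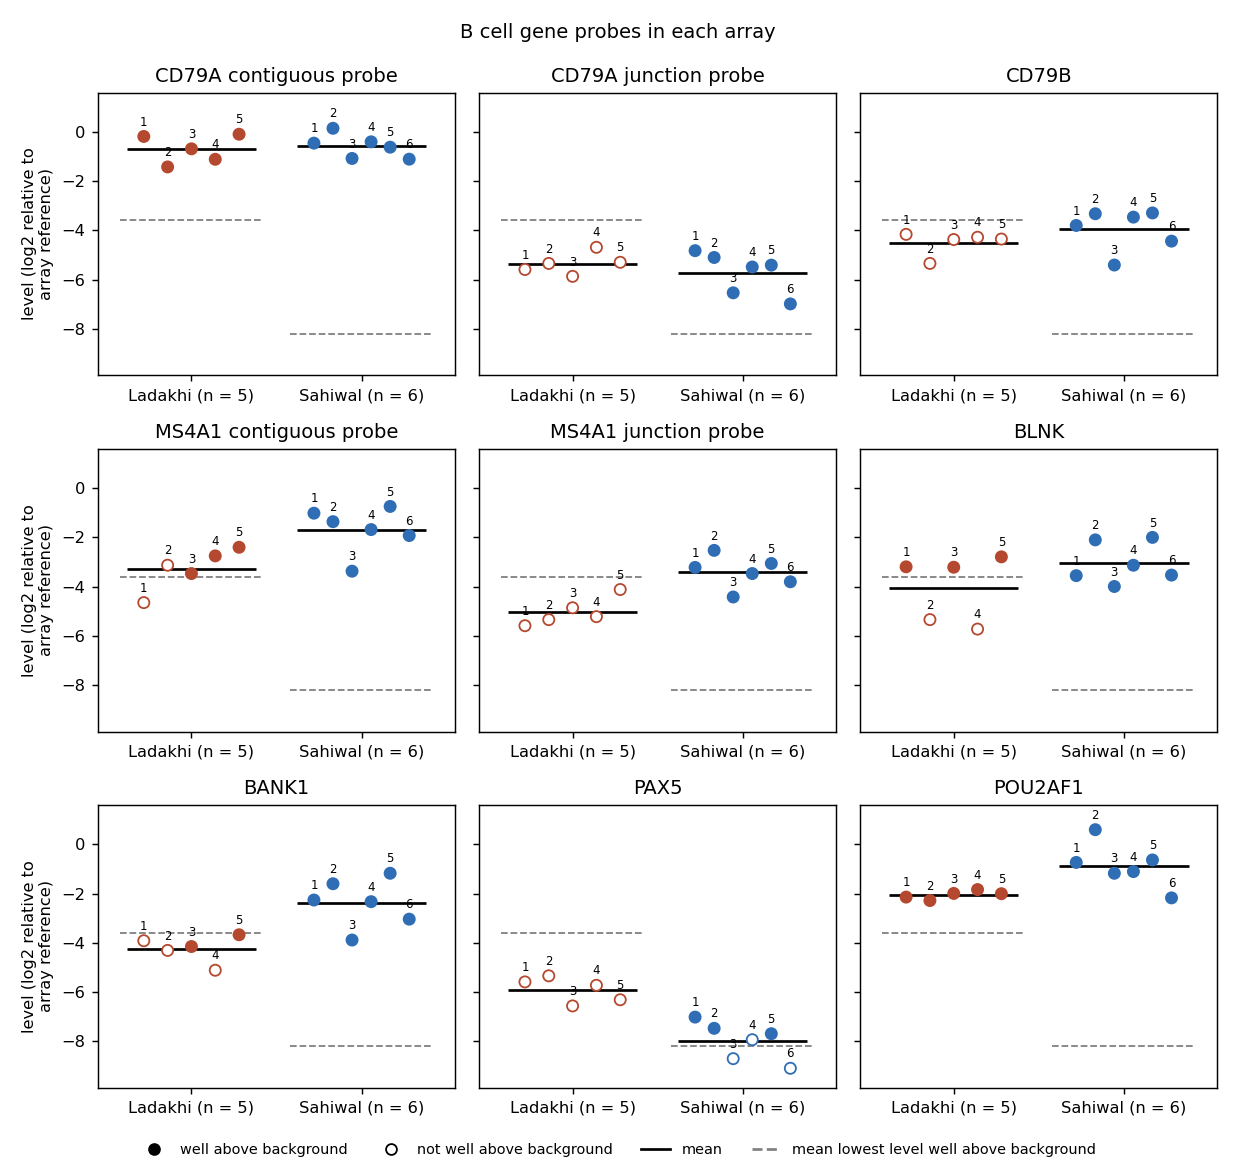
Level of 9 member probes in each array (log2 relative to the array reference), with Ladakhi arrays 1 to 5 in red and Sahiwal arrays 1 to 6 in blue. Filled points were well above background and open points were not, black lines are means, and dashed lines are the mean of the lowest level above background in each breed. CD79A (contiguous probe) and POU2AF1 are the probes with filled points in every array.

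CD79A, the Igα chain of the receptor, was measured on all 11 arrays, and its breed means differed by less than the spread between arrays. Its contiguous probe read -0.18, -1.42, -0.68, -1.11 and -0.09 on Ladakhi arrays 1 to 5. In Sahiwal it ran from -1.10 over a median of -0.53 to 0.15. The groups overlapped in part, with Ladakhi arrays 2 and 4 below every Sahiwal array and Ladakhi arrays 1 and 5 above all but 1 of them. The means were -0.70 ± 0.58 (SD, n = 5) and -0.58 ± 0.47 (SD, n = 6), a difference of -0.11 with a standard error of 0.33 (limma, adjusted p = 0.804). The sign of this small difference turned under quantile normalization (0.09) and cyclic loess (0.33), neither of which passed the test.

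The CD79A junction probe reads the ITAM shown above. In Sahiwal it ran from -6.99 over a median of -5.45 to -4.82, above background throughout. In Ladakhi it was not well above background on any array, at -5.59, -5.34, -5.87, -4.69 and -5.30. Those levels lie below the Ladakhi limit, and the Sahiwal mean of -5.73 ± 0.85 (SD, n = 6) lies below it too, so no fold can be given (difference 0.37, standard error 0.40, adjusted p = 0.479). The fitted value moved with the treatment of the dim signals, to 2.13 with them raised (adjusted p = 7.5e-05) and 2.25 with normexp (6.5e-07), and to -0.74 under quantile normalization (0.412). Over the 6 Sahiwal arrays the 2 CD79A probes moved together, with a Pearson r of 0.83 (exact permutation p = 0.0403, adjusted over the 2 genes 0.0458; r = 0.89 without the 2 arrays farthest from the median) and a Spearman rho of 0.71 (exact p = 0.136, adjusted 0.136).

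CD79B, the Igβ chain, was measured in Sahiwal alone. It ran there from -5.41 over a median of -3.63 to -3.29, with arrays 3 and 6 lowest. On the Ladakhi arrays it stood at -4.16, -5.34, -4.37, -4.28 and -4.35, not well above background on any of them. The groups overlapped and the difference of -0.55 (standard error 0.40) did not pass the test (adjusted p = 0.285). Since the Sahiwal mean of -3.95 ± 0.83 (SD, n = 6) was under the Ladakhi limit, no bound can be given. The sign turned to 0.76 with a normexp background correction (adjusted p = 0.0343), so CD79B has no settled direction.

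MS4A1, the surface protein CD20 of mature B cells, read lower in Ladakhi on its contiguous probe, while its junction probe was not detected there. On the contiguous probe the Ladakhi arrays read -4.65, -3.13, -3.47, -2.75 and -2.40, above background on arrays 3, 4 and 5. The Sahiwal arrays ran from -3.37 over a median of -1.52 to -0.74. All Ladakhi arrays lay below 5 of the 6 Sahiwal arrays, and Sahiwal array 3 lay among them. The fitted difference was -1.60 with a standard error of 0.48 (limma adjusted p = 0.0171), with 2 of 5 Ladakhi arrays below their limit. With those signals raised to the lowest level above background on their array it was -1.30 (adjusted p = 0.0068), at least 2.47-fold higher in Sahiwal. The call was lost under quantile normalization (adjusted p = 0.0516), cyclic loess (0.0908) and normexp (0.0621).

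The MS4A1 junction probe was not well above background on any Ladakhi array, at -5.59, -5.34, -4.86, -5.22 and -4.12. In Sahiwal it ran from -4.42 over a median of -3.34 to -2.53. The limits of the Ladakhi arrays, from -4.25 to -3.03, lay inside that range, so no Ladakhi array can be placed within or below it. Against the Ladakhi limit, the Sahiwal mean of -3.42 ± 0.65 (SD, n = 6) was at least 1.13-fold higher (limma adjusted p = 0.00374 for a fitted difference of -1.61, standard error 0.37, in which the Ladakhi side is no measurement). The call was lost with dim signals raised (-0.18, adjusted p = 0.659) and with normexp (-0.01, adjusted p = 0.984). Over the Sahiwal arrays the 2 MS4A1 probes moved together, with a Pearson r of 0.84 (exact permutation p = 0.0458, adjusted 0.0458; r = 0.61 without the 2 farthest arrays) and a Spearman rho of 0.83 (exact p = 0.0583, adjusted 0.117).

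CR2, the complement receptor CD21 that lowers the threshold of the antigen receptor, was at the edge of detection. Probes 1, 2 and 3 were not well above background on any of the 11 arrays. Probe 4, shown above, was above background on Sahiwal arrays 1, 4 and 5, with levels of -7.45, -6.94 and -7.20, and on Ladakhi array 4, with a level of -3.37. It read -8.83, -10.14 and -8.26 on Sahiwal arrays 2, 3 and 6. On Ladakhi arrays 1, 2, 3 and 5 all 4 CR2 probes and PAX5 held 1 shared signal per array, 21.2, 25.3, 19.3 and 15.0 intensity units, which is the value the extraction software writes for a spot without signal. CR2 was therefore not tested between the breeds.

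The adaptor BLNK was detected on 3 of the 5 Ladakhi arrays. It was above background on arrays 1, 3 and 5, at -3.20, -3.21 and -2.79, and not on arrays 2 and 4, at -5.34 and -5.73. In Sahiwal it ran from -4.00 over a median of -3.33 to -1.998. The 3 Ladakhi arrays where BLNK was above background lay within the Sahiwal range. Arrays 2 and 4 held the value written for a spot without signal, 25.3 and 14.9 intensity units. Their limits of -3.03 and -3.41 lay inside the Sahiwal range, so these 2 arrays cannot be placed below it. The difference of -1.002 (standard error 0.57) did not pass the test (adjusted p = 0.171), and with dim signals raised it was -0.08. The CD79A contiguous probe was higher on Ladakhi arrays 1, 3 and 5, where BLNK was above background, than on arrays 2 and 4. Other members did not share this order. POU2AF1 was highest on array 4, at -1.83. The MS4A1 contiguous probe was above background on array 4, at -2.75, and not on array 1, at -4.65. With 5 arrays no correlation is given.

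BANK1, a scaffold protein that binds kinases and calcium channels downstream of the receptor, read lower in Ladakhi, where 2 of the 5 arrays measured it. Its Ladakhi levels were -3.92, -4.31, -4.15, -5.12 and -3.67, above background on arrays 3 and 5. The Sahiwal levels ran from -3.89 over a median of -2.29 to -1.17. As read, Sahiwal array 3 lay among the Ladakhi arrays and the other 5 above all of them. Ladakhi array 2 was not above background and had a limit of -3.03, so it cannot be placed below Sahiwal array 6, at -3.04. The fitted difference was -1.85 with a standard error of 0.45 (limma adjusted p = 0.00512), with 3 of 5 Ladakhi arrays below their limit. With those dim signals raised to the limit it was -1.13 (adjusted p = 0.0196), at least 2.18-fold higher in Sahiwal. It missed the threshold with normexp (-0.73, adjusted p = 0.0719).

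PAX5, the transcription factor that commits progenitors to the B lineage, was above background on Sahiwal arrays 1, 2 and 5, at -7.02, -7.48 and -7.70. It read -8.71, -7.94 and -9.11 on arrays 3, 4 and 6, and no Ladakhi array had a signal above background. The limit of detection was higher in Ladakhi than any of these Sahiwal levels, so the breeds could not be compared at this depth. The 3 arrays where PAX5 was above background had the highest mean of the other B cell genes, as given below. Array 1 was close to array 4 in that mean (0.12 and 0.07). Arrays 1 and 5 also had the most spots above background of the Sahiwal arrays, 20574 and 20408.

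POU2AF1, the B cell coactivator OBF-1 (OCA-B) of octamer-binding factors, was measured on every array and read lower in Ladakhi. The Ladakhi levels were -2.14, -2.28, -1.99, -1.83 and -2.004. The Sahiwal levels ran from -2.17 over a median of -0.92 to 0.60. The Ladakhi arrays were tightly grouped and 5 of the 6 Sahiwal arrays lay above all of them, with Sahiwal array 6 inside their range. The means were -2.05 ± 0.17 (SD, n = 5) and -0.87 ± 0.90 (SD, n = 6), a 2.27-fold difference (-1.18, standard error 0.39, limma adjusted p = 0.0264). The call was lost without Ladakhi array 1 (adjusted p = 0.0514) or 2 (0.0562), under quantile normalization (-0.91, 0.0915) and under cyclic loess (-0.73, 0.218). Those 2 normalizations moved the median of all probes measured in both breeds to 0.17 and 0.41, and relative to that shift POU2AF1 lay at -1.08 and -1.14. Of all probes measured in both breeds, 32.7% were called in either direction, and for 21.6% the arrays of the breeds did not overlap.

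Between breeds, then, 4 of the 8 member probes tested were called lower in Ladakhi, from 3 of 6 genes (MS4A1, BANK1 and POU2AF1), where 17.3% of the 17865 probes tested were. Of these 4, only POU2AF1 was measured in both breeds, and the MS4A1 junction probe was above background on 0 Ladakhi arrays. None of the 8 was called higher, against 24.5%, and in either direction 41.8% of all probes tested were called. For none of the 8 were the breeds' arrays without overlap, against 22.8% of all probes tested. A member entered this count through the Sahiwal arrays alone in 6 of 8 cases, so the count is no evidence of a shared direction. Of the probes above background on all 6 Sahiwal and on 1 to 3 Ladakhi arrays, 27.4% were called lower, and of those on 0 Ladakhi arrays 20.4%. Without Sahiwal arrays 4 and 6 the count of member probes called lower was again 4.

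**Figure D2:**
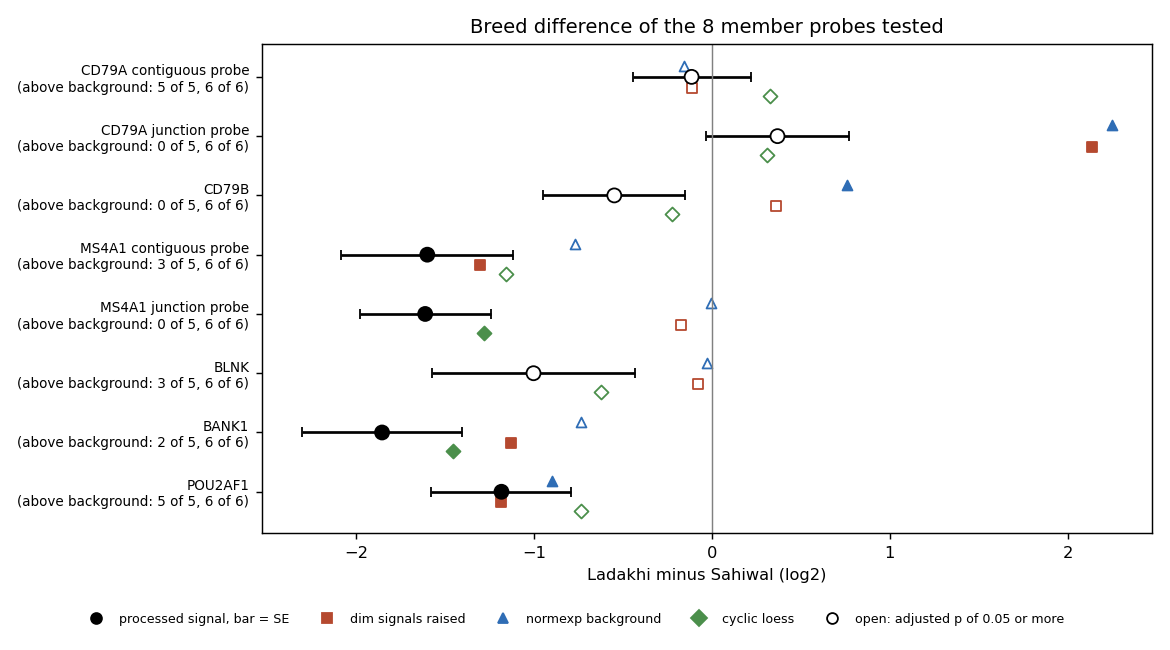
Difference between the breeds (Ladakhi minus Sahiwal, log2) for the 8 member probes tested, with the standard error as bar and 3 alternative treatments beside it; filled symbols passed an adjusted p of 0.05. Under the 4 treatments POU2AF1 lies between -1.18 and -0.73 and the CD79A contiguous probe between -0.16 and 0.33, while the CD79A junction probe runs from 0.31 to 2.25.

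Within Sahiwal, the B cell genes were high or low on the same arrays. The mean of the 6 genes, each by its brighter probe and centred on its own mean, stood at 0.12, 0.82, -1.07, 0.07, 0.68 and -0.62 on arrays 1 to 6. Arrays 3 and 6 were low: array 3 had the lowest or second lowest value for 8 of the 8 member probes and array 6 for 7. All probes above background on the 6 arrays had a median of -0.22 on array 3, relative to their own means. Fewer of them were lower there than MS4A1 (0.474%), BANK1 (1.07%), CD79B (1.36%) and BLNK (8.21%) than were lower than CD79A (29%) and POU2AF1 (43.1%). Arrays 2 and 5 were high, with the highest or second highest value for 7 and 6 of the 8 probes. By the brighter probes, the spread within the breed was widest for POU2AF1 (6.84-fold from array 6 to array 2) and BANK1 (6.57-fold from array 3 to array 5). It was narrowest for the CD79A contiguous probe (2.39-fold). The standard deviation was 0.98 for BANK1, 0.93 for MS4A1, 0.90 for POU2AF1, 0.83 for CD79B, 0.82 for BLNK and 0.47 for CD79A. The narrow spread was not shared by the CD79A junction probe (4.49-fold, standard deviation 0.85). The MS4A1 junction probe spanned 3.72-fold (standard deviation 0.65). The median standard deviation of all probes above background on the 6 arrays was 0.46, and 49% of them spread at least as much as the CD79A contiguous probe.

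Among the 15 pairs of the 6 genes, the median Pearson r over the 6 arrays was 0.71 and the median Spearman rho 0.77, against a median r of 0.10 over all pairs of probes above background. An r of at least 0.8 was reached by 6 of the 15 pairs, and by 6.17% of all probe pairs. BANK1 and CD79B were closest (r = 0.95, rho = 0.94), and BANK1 also followed BLNK (0.92) and MS4A1 (0.91). MS4A1 and POU2AF1 were least alike by r (0.38), although their ranks followed each other (rho = 0.77). POU2AF1 was closest to CD79A (0.88). In an exact permutation test of each pair, two-sided, 5 pairs had a raw p under 0.05 by r and 4 by rho, and 0 of 15 passed after adjustment over the pairs; the smallest adjusted p-values were 0.0625 and 0.0833.

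**Figure D3:**
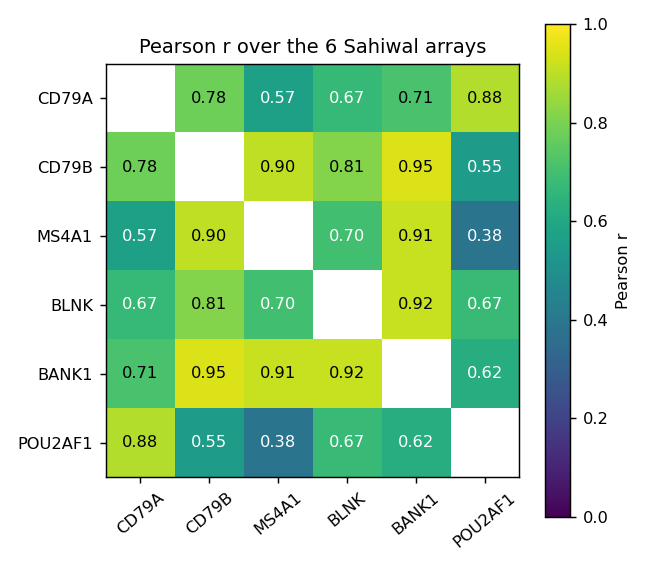
Pearson r between the 6 B cell genes over the 6 Sahiwal arrays (colour and printed value). Pairs among BANK1, CD79B, MS4A1 and BLNK lie between 0.70 and 0.95, and the lowest value is that of MS4A1 and POU2AF1.

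The shared pattern did not rest on 1 array. Leaving out each array in turn gave a median r of 0.70 to 0.86. Without array 3, where the members were lowest, it was 0.76, with single pairs from 0.29 to 0.94. Without the 2 arrays farthest from the median of each pair's first gene it was 0.71, but single pairs ran from -0.02 to 0.996. Without arrays 4 and 6 it was 0.72, over 4 arrays. Each gene correlated with the mean of the others at 0.95 (BANK1), 0.91 (CD79B), 0.85 (BLNK), 0.81 (CD79A), 0.77 (MS4A1) and 0.68 (POU2AF1). In the same order, 0.481%, 1.14%, 3.19%, 5.06%, 5.57% and 11.8% of the non-member probes correlated with those means at least as highly. These values are descriptions of 6 arrays that share scanner and depth. The mean of the members had an r of 0.50 with the number of spots above background (rho = 0.37, exact permutation p = 0.314 and 0.497; r = 0.39 without the 2 farthest arrays) and of 0.59 with the array's reference signal (rho = 0.49, exact permutation p = 0.206 and 0.356; r = 0.44).

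The Sahiwal arrays lay on 2 slides, arrays 1 and 2 on 1 and arrays 3 to 6 on the other. The members were higher on the first, by 0.34 for BLNK to 1.20 for POU2AF1, where all probes differed by a median of -0.03. With each slide centred on its own mean the median r of the 15 pairs was 0.76.

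Markers of the other cells in the fraction did not follow the B cell genes. No gene of the T cell, NK cell or monocyte lists reached an r of 0.8 with the mean of the members, and the median r was -0.40 over 10 T cell genes, -0.44 over 4 NK cell genes and -0.43 over 9 monocyte genes. On arrays 3 and 6, where the members were low, platelet markers summed to 4.40 and 4.21 times the reference, against 0.25 to 1.86 on the other Sahiwal arrays. Red cell markers summed to 1.33 and 1.63 there, against 0.08 to 0.62. Array 3 also had the highest summed T cell (3.38) and NK cell (2.34) markers, and array 6 the highest summed monocyte (6.85) and granulocyte (1.92) markers. The part of these cells in the low B cell levels was not tested. Between the breeds, the summed T cell markers lay between 2.29 and 5.19 on Ladakhi arrays and between 1.38 and 3.38 on Sahiwal arrays. The summed monocyte markers lay between 1.33 and 2.62 and between 2.59 and 6.85. Single genes of both lists went both ways. Of 11 T cell genes tested, 3 read higher and 2 lower in Ladakhi, and of 10 monocyte genes 2 and 3. Of all probes tested, 24.5% read higher and 17.3% lower. The part of T cells and monocytes in the breed differences of the members was not tested.

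**Figure D4:**
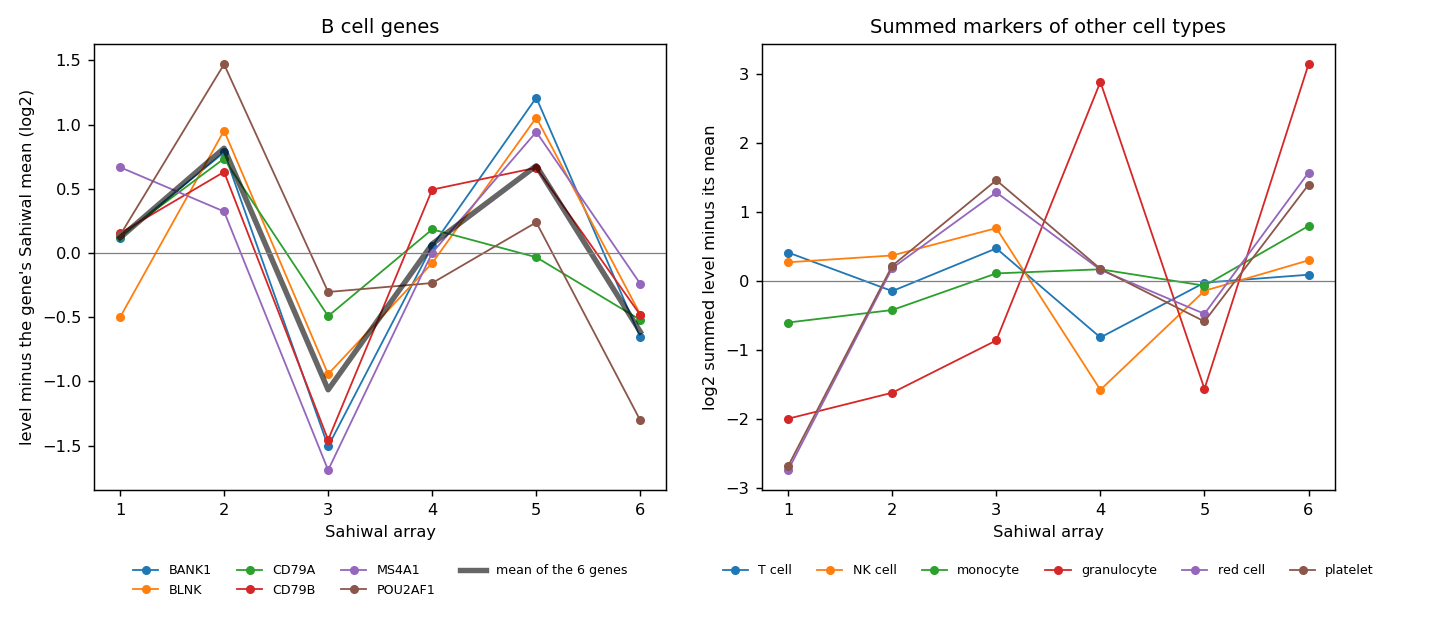
Left, level of the 6 B cell genes on each Sahiwal array minus the gene's own mean (log2), with their mean in grey. Right, log2 of the summed levels of marker genes of other cell types minus its mean; lines only join points of 1 gene or list, and arrays 3 and 6 are low on the left and high for platelet and red cell markers on the right.

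Of 7278 other genes above background on all Sahiwal arrays, the 5 whose pattern was most like the mean of the members were HABP4 (r = 0.997), VDAC1 (0.99), MKKS (0.98), FCRLA (0.98) and AGPAT4 (0.98). FCRLA is itself a B cell protein related to the Fc receptors. Its levels on Sahiwal arrays 1 to 6 were -3.61, -3.08, -4.98, -3.53, -3.09 and -4.27, low on arrays 3 and 6 and high on arrays 2 and 5. Of the non-member probes, 790 of 14968 (5.28%) reached an r of 0.8 with the mean of the members.

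Other genes of the B cell programme were read from 5 lists, each gene by its brightest probe. Of the 61 of these genes with a value on all Sahiwal arrays, 14 reached an r of 0.8 with the members. Among those were BTK, INPP5D and LYN of 20 genes of antigen receptor signalling, BCL11A, EBF1 and SPIB of 12 transcription factors, CD1D, FCRL1, FCRLA, GPR183 and TNFRSF13C of 18 surface and survival receptors, DERL3 of 9 plasma cell and immunoglobulin genes, and S1PR2 of 2 early and germinal centre genes. Genes of B cell development and of germinal centres were mostly not detected: 9 of 11 were above background on 0 Sahiwal arrays, among them RAG1, RAG2, DNTT and VPREB1, which act in immunoglobulin gene assembly and the pre-B cell receptor.

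Between the breeds, 68 of the 88 listed genes with a probe could be tested, of which 12 read higher and 16 lower in Ladakhi, against 24.5% and 17.3% of all probes tested. Of the 12, 4 were measured in Ladakhi, and the other 8 were above background on 0 to 3 Ladakhi arrays, so the lists are described by the genes measured in both breeds. Measured in both breeds were 32, of which 4 were higher and 5 lower, and their median difference was -0.54 against -0.02 for all probes measured in both. Among all probes measured in both breeds, 18.2% were higher and 14.5% lower.

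Antigen receptor signalling had 3 genes higher and 3 lower of 13 measured in both breeds. LYN, the kinase that phosphorylates the ITAMs, differed by -1.89 (standard error 0.79, adjusted p = 0.0678). LYN was not above background on Ladakhi array 2, where it read -5.29, and ran from -1.36 to 0.23 on the other Ladakhi arrays; without array 2 its difference was -0.88 (adjusted p = 0.0735), and without Ladakhi array 3 it was -2.27 (0.0423). CD81, a tetraspanin found on most lymphocytes, was 0.71 higher in Ladakhi (standard error 0.25, adjusted p = 0.0351), on a probe with saturated spots on 2 arrays. Without Ladakhi array 1, 2, 3 or 5 or Sahiwal array 1, 4 or 5 CD81 missed the threshold (adjusted p of 0.0535 to 0.0719). It also missed it without Sahiwal arrays 4 and 6 (0.089), with the percentile of all probes (0.0734) and in the deposited value table (0.0718).

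BLK, a Src family kinase of B cells, went the other way from MS4A1 and POU2AF1 and was 1.08 higher in Ladakhi without overlap of the breeds (standard error 0.27, limma adjusted p = 0.00618). It was named after its values were seen, because it is a B cell gene measured in both breeds. Over the Sahiwal arrays BLK did not follow the members (r = 0.07).

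Of the 3 B cell transcription factors measured in both breeds, 1 was higher and 1 lower. IKZF3, the Ikaros family factor Aiolos, rose by 1.68 in Ladakhi (standard error 0.29, adjusted p = 0.000685). SPI1, which drives myeloid as well as early B cells, fell by 1.36 (standard error 0.36, adjusted p = 0.00799) and was highest on Sahiwal arrays 4 and 6, at 2.01 and 2.52, the arrays with granulocyte markers. Without those 2 arrays the difference was -0.92 (adjusted p = 0.036), and the call was lost under cyclic loess (0.0984). IRF8, shared with monocytes and dendritic cells, differed by -0.49 (adjusted p = 0.245), and by -0.29 without Sahiwal array 2.

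Of 9 surface and survival receptors measured in both breeds, 0 were higher and 1 was lower by limma's adjusted p (0 and 2 at an unadjusted p under 0.05). The activation marker CD83 differed by -1.77 (standard error 0.81, adjusted p = 0.0919) and ranged from -2.98 to 1.93 within Sahiwal; without Sahiwal array 4 or 5 it passed the test (adjusted p = 0.0409 and 0.0211), as it did without arrays 4 and 6 (0.0334). CD40, the receptor for T cell help, differed by -1.12 (adjusted p = 0.174), and by -0.30 without Ladakhi array 1, where it was not above background. LTB, lymphotoxin beta, differed by -1.05 (adjusted p = 0.368) and was read on a probe with saturated spots on 4 arrays. Without Ladakhi array 4, where LTB read -3.35, the sign turned (0.16), so it has no direction. The tetraspanin CD53 fell by 1.02 (standard error 0.30, adjusted p = 0.0157), a call lost under cyclic loess (adjusted p = 0.197) and without Sahiwal arrays 4 and 6 (adjusted p = 0.0814).

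Of 5 plasma cell and immunoglobulin genes measured in both breeds, 0 were higher and 0 lower by limma's adjusted p, and 0 at an unadjusted p under 0.05. PRDM1, the regulator of plasma cell differentiation, differed by -1.12 (adjusted p = 0.209), by -0.55 without Ladakhi array 1, where it was not above background, and by -0.66 without Sahiwal array 3. The endoplasmic reticulum protein FKBP11 differed by 1.07 (adjusted p = 0.102) and passed without Ladakhi array 5 (0.0309), without Sahiwal array 4 (0.0399) and without Sahiwal arrays 4 and 6 together (1.67, 0.015). XBP1, the factor of the secretory programme, differed by 0.16 (adjusted p = 0.624), and JCHAIN, the joining chain of secreted IgM and IgA, by 0.32 (adjusted p = 0.624; -0.02 without Sahiwal array 3). VPREB3 and S1PR2, the measured genes of the early and germinal centre list, differed by 0.95 (adjusted p = 0.0568) and 0.30 (adjusted p = 0.49); VPREB3 passed without Ladakhi array 4 (0.0492) or Sahiwal array 4 (0.0377) or 5 (0.0458), and under quantile normalization (0.0254) and cyclic loess (0.013).

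**Figure D5:**
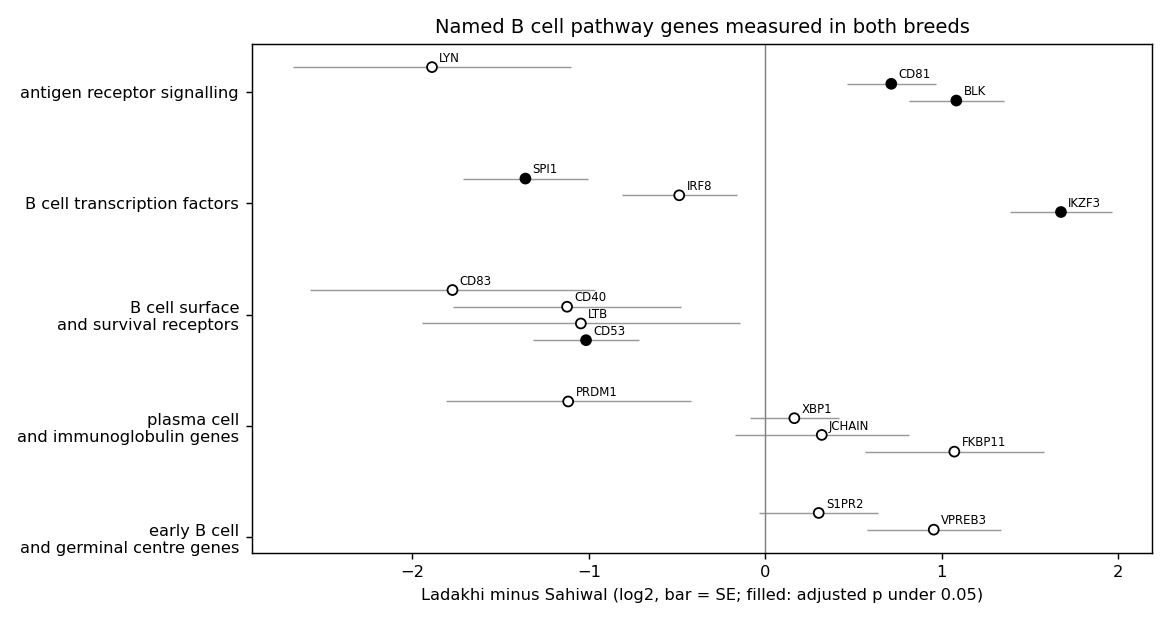
Difference between the breeds (Ladakhi minus Sahiwal, log2, standard error as bar) for the 16 B cell pathway genes described in the text, all measured in both breeds; filled points passed an adjusted p of 0.05. The called genes lie on both sides of 0, with CD81, BLK and IKZF3 higher and SPI1 and CD53 lower in Ladakhi.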

How the data were processed

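Per the labels' protocols, total RNA was amplified, labelled with Cy3 and hybridised to 1-colour arrays. The deposited intensity values are, per the file headers, the processed signal of Feature Extraction (background-subtracted, with a surrogate where there is no signal), version 12.0.1.1 on an Agilent scanner for Ladakhi and 9.5.3.1 on an Axon scanner for Sahiwal. Each of the 4 slides holds 1 breed. The deposited log2 value table, centred on probe medians over arrays, has columns that each match another array of their breed, none their own (r of at least 0.9998). It served as an alternative between breeds alone. Its scaling between arrays is unknown, with column medians of 1.6 to 2.31 for Ladakhi and -0.73 to 0 for Sahiwal. Array numbers here are those of the scanner files.

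Control spots were left out, 294 outlier spots were set missing and spots of 1 probe were averaged. The reference percentile was taken over probes above background on all arrays because most probes are not detected on the Ladakhi arrays. Breeds were compared with limma 3.58.1 in R 4.3.3 (lmFit and eBayes, two-sided, Benjamini-Hochberg adjustment) over the 17865 probes measured in 1 breed or both, at an adjusted p of 0.05; 4048 probes were measured in both. An "at least" fold sets the Sahiwal mean against the mean, per Ladakhi array, of the higher of the lowest level above background and the probe's own. Names were updated through RefSeq's gene table of ARS-UCD2.0 (26740 probes matched).

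From each list were named the 2 genes measured in both breeds with the largest difference and the 2 with the highest Sahiwal mean. Some of the listed genes are counted but not reported here by name. Members, lists and the choice of scale were made with earlier results of these data known. Replicate numbers did not pair the breeds. Alternatives covered scaling, normalization, background, filters, blocks and left-out arrays. Arrays number 11, which limits precision.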

Additional observations from a re-analysis of the deposited data

How the results depend on the processing

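The members' count of 4 probes called lower became 2 under quantile normalization, 2 under cyclic loess, 1 with normexp and 1 over probes measured in both breeds only, and their count of 0 called higher became 2 with normexp and 1 with dim signals raised (0 at an unadjusted p under 0.05 in the limma fit as reported). CD79B turned to 0.76 with normexp and the CD79A junction probe to -0.74 under quantile normalization. Leaving out 1 array gave 3 to 4 probes lower and 0 higher, 6453 to 7490 calls over all probes, 14 to 16 lower and 10 to 13 higher in the pathway lists, and a median r of 0.70 to 0.86. All calls, 7475 (58.6% higher), became 3748 with cyclic loess (50.7% higher), 13477 with normexp (91.7%), 12574 with dim signals raised (87.5%), 34473 with no filter (89.3%), where surrogates enter, and 1327 over probes measured in both; with quantile normalization 19.0% of 7943 were higher. Pathway genes called lower, 16, became 7 with cyclic loess and 4 over probes measured in both; those higher, 12, became 33 with normexp, 29 with dim signals raised, 20 with slide as a random block and 4 over probes measured in both. A mark for signal above background by significance alone gave 4 member probes on all Ladakhi arrays in place of 2. The cause of these changes was not tested.

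The labels number the arrays of both breeds. Same-numbered arrays had correlated deviations of -0.07 to 0.05, no array was closest to its own number (0 of 5), and the deposited table numbers the arrays otherwise, so the numbers were not taken as pairs; with the replicate block 4 member probes were again lower and 6408 probes were called. The normexp correction used median signals on all arrays. Leaving out Sahiwal arrays 4 and 6, chosen after seeing the data, gave 6088 calls, and 11 higher and 11 lower in the pathway lists. Ladakhi signals near background limit what can be said of CD79B, CR2, PAX5 and the junction probes.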
